A study of Mus musculus with 12 samples.

Results

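The 10 genes described here are 9 that encode ubiquitin editors, ligases and adaptors of tumour necrosis factor (TNF) receptor signalling, Tnfaip3 (A20), Tnip1, Tnip2, Cyld, Birc2 (cIAP1), Birc3 (cIAP2), Traf1, Traf2 and Traf3, and the TNF-induced gene Tnfaip2. They were taken by gene symbol from a deposited table of 53341 genes, and all 10 were found and passed the filter on low values. The cells were cultured fibroblast-like synoviocytes of mice, which line the joint cavity, and the study asked which parts of their response to TNF depend on SOXC, the transcription factors Sox4, Sox11 and Sox12. The 4 groups of 3 libraries were SoxC_KO_TNF (SoxC mouse cells given an Ade5CMV-Cre adenovirus and recombinant human TNF), SoxC_KO (Ade5CMV-Cre without TNF), control_TNF (Ade5CMV-eGFP with TNF) and control (Ade5CMV-eGFP without TNF). TNF was used at 10 ng/mL for 16 h, and every group had received a virus. By the name of the vector, Cre was driven by a CMV promoter, which is not specific to a cell type, and the sources used here do not give the floxed parts of the SOXC genes or the age of the mice.

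As background, ligand-bound TNF receptor recruits TRADD, RIPK1, TRAF2 and the cIAPs, which build ubiquitin chains that hold the kinases leading to NF-kB, the transcription factor family that switches on inflammatory genes. A20 and CYLD remove or edit such chains, and the TNIP proteins (also called ABINs) bind ubiquitin chains and A20. Several of these regulators are known NF-kB target genes, which makes them feedback genes. TRAF2, TRAF3 and the cIAPs also act together to keep NIK, the kinase of the alternative NF-kB pathway, at a low level. Tnfaip2 is a gene found by its induction with TNF, and its protein acts in membrane protrusions and not in ubiquitin chains.

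The promoter windows below are shown because TNF acts through NF-kB and because the first 4 genes rose with TNF and the last, Traf3, gave no call. Each is the RefSeq window of GRCm38.p6 (the assembly of mm10) that runs from 250 bases before to 50 bases after a gene's start, written on the gene's own strand. Capitals mark every match, on either strand, to the 10-base NF-kB consensus (GGG, a purine, any base, A or T, 2 pyrimidines and CC).
Tnfaip3, chr10:19015361-19015660, minus strand: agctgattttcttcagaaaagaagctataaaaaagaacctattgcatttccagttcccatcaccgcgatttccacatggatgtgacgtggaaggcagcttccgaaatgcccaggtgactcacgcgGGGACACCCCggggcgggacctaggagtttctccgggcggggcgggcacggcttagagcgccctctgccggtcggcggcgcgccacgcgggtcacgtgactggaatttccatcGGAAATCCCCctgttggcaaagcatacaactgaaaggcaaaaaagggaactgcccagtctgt
Tnip1, chr11:54962891-54963190, minus strand: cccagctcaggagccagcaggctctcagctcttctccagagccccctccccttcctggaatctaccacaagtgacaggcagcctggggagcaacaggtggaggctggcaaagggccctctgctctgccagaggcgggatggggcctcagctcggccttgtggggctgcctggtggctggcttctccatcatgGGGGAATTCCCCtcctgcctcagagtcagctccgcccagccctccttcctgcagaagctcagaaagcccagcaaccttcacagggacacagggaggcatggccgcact
Birc3, chr9:7873121-7873420, minus strand: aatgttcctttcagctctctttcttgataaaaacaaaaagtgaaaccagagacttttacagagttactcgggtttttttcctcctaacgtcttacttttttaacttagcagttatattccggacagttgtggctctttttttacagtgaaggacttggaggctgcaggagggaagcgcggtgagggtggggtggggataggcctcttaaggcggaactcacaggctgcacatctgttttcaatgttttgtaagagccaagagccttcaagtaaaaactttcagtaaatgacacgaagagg
Traf1, chr2:34961723-34962022, minus strand: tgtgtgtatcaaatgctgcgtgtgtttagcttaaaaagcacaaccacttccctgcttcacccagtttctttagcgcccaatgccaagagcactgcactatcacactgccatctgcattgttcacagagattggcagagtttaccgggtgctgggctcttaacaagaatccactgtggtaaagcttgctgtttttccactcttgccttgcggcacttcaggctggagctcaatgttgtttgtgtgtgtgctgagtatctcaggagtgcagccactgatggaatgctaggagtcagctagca
Traf3, chr12:111166120-111166419, plus strand: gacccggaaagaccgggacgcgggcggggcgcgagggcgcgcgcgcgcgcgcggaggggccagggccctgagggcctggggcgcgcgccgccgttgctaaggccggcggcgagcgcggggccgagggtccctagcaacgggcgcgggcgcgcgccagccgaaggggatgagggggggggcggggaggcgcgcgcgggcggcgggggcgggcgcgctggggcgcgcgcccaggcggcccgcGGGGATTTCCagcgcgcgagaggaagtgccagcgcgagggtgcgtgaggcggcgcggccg

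The Tnfaip3 window shown held 2 separate matches, GGGACACCCC with its first base 125 bases before the start and GGGGATTTCC, read on the opposite strand, with its first base 12 bases before the start. The Tnip1 window held 4 overlapping matches in 1 palindromic run of 12 bases that starts 58 bases before the start. The Traf3 window held GGGGATTTCC 10 bases before the start. The 10 genes had 12 windows, 2 each for Tnfaip3 and Birc2, and the other Tnfaip3 window (chr10:19011914-19012213) held no match. Of the 12 windows, 4 held a match to the consensus, 1 each of Tnfaip3, Tnip1, Traf3 and Cyld, and 4.505% of all 32851 RefSeq windows held one. The Birc3 and Traf1 windows held no match, and neither did those of Birc2, Traf2, Tnip2 and Tnfaip2. A looser pattern (GG, 2 purines, any 2 bases, 2 pyrimidines and CC), which covers every sequence of the consensus, was matched in 6 of the 10 genes, with Tnip2 and Tnfaip2 in addition, and in 11.175% of all windows. These are matches of letters in short windows, with no binding measured here.

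All 12 libraries carried 19.6 to 23.1 M normalized counts, which stand for roughly 8.14 to 13.7 M read pairs, fewest in SoxC_KO_TNF replicate 1. Sox4 was at 1020, 1086 and 601 normalized counts in SoxC_KO_TNF, against 1697, 3646 and 1625 in control_TNF, and at 1432, 1433 and 548 in SoxC_KO, against 4238, 4143 and 1857 in control, so no Sox4 value of a knockout library reached its controls. Sox11 was at 75.1, 105 and 29.5 in SoxC_KO_TNF, against 194, 248 and 138 in control_TNF, and at 175, 157 and 26.8 in SoxC_KO, against 269, 272 and 153 in control. Sox12 was at 129, 159 and 86.5 in SoxC_KO_TNF, against 278, 326 and 237 in control_TNF, and at 229.7, 194 and 259 in SoxC_KO, against 352, 342 and 162 in control. Without TNF, the knockout and control libraries overlapped for Sox11 and Sox12, and with TNF they did not. Reads outside the deleted parts would not check the knockout. All 9 markers of fibroblast-like synoviocytes were present, with summed levels between 153641 and 449159 normalized counts. The 7 macrophage markers summed to 1389 to 2826 in SoxC_KO_TNF, 1405 to 3410 in SoxC_KO, 1114 to 3183 in control_TNF and 1120 to 2942 in control. Among them Lyz2 was at 677 to 2438 and Ptprc at 19.1 or less in each library. The 4 libraries numbered 3, 1 per group, stood apart from the other 8 on the first principal component, which held 51.6% of the variance. Liver markers summed to 3901 in SoxC_KO_TNF replicate 1 and 573 in control_TNF replicate 2, against 72.4 or less elsewhere. The skeletal muscle gene Myh4 was at 277 in SoxC_KO_TNF replicate 1 and 188 in SoxC_KO replicate 1, against 13.3 or less elsewhere. All listed muscle markers but Acta1 were highest in these 2 libraries. With Acta1 the markers summed to 1280 and 1224 there, and to 1288 in SoxC_KO replicate 3, where Acta1 alone was at 1146. In whole cultures, more of a transcript per cell and more cells that hold it cannot be told apart.

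With TNF, 4 of the 10 genes rose over the average of knockout and control cells: Traf1, Tnfaip3, Birc3 and Tnip1 (limma, adjusted p under 0.05). In all, 0.877% of the 18139 genes tested were higher by this rule. The median log2 change of the 10 genes was 0.68, against -0.0011 for all genes tested, and all 10 changes were above 0. The 4 that rose are an adaptor (Traf1), the editor A20 (Tnfaip3), one of its partners (Tnip1) and one ubiquitin ligase (Birc3). None of Traf2, Traf3, Cyld and Tnip2 passed the test, and Birc2 and Tnfaip2 passed it in a model with the replicate number as a block.

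Tnfaip3 (chromosome 10, 19000910 to 19015657, minus strand, mm10), which encodes the ubiquitin editor A20, was high in every library given TNF. Its level was 4356, 4239 and 3476 normalized counts in SoxC_KO_TNF, against 1440.2, 1589 and 1023 in SoxC_KO. In control_TNF it was 3189, 4510.1 and 2481, against 1597, 1672 and 1241 in control. The groups with TNF and without it did not overlap in either genotype. The log2 change was 1.59 (SE 0.25, limma adjusted p = 0.0239) in knockout cells, a 3.01-fold level, and 1.14 (SE 0.25, limma adjusted p = 0.149) in control cells, a 2.21-fold level. The average was 1.37 (SE 0.18, limma adjusted p = 0.00304). With the replicate number as a block the change in control cells passed too (limma adjusted p = 0.000988). The call in knockout cells was lost without any 1 library of SoxC_KO_TNF or SoxC_KO, without control_TNF replicate 1 or without control replicate 1 (limma adjusted p = 0.0518 to 0.145). It was also lost without the 2 libraries with muscle transcripts (limma adjusted p = 0.398) and without the 2 with liver transcripts (0.118). A model of only the 2 groups compared lost it too (limma adjusted p = 0.202). The average change kept an adjusted p under 0.05 in all 22 alternatives run (at most 0.0429).

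Tnip1 (chromosome 11, 54910785 to 54962917, minus strand), which encodes a ubiquitin-binding partner of A20, was one of the most abundant of the 10 genes and also stood high with TNF. It was at 4782, 5096 and 4494 in SoxC_KO_TNF, against 2216, 2169 and 3752 in SoxC_KO. In control_TNF it was at 4954, 5226 and 6494, against 2069.6, 2161 and 2658 in control. The groups did not overlap in either genotype, and SoxC_KO replicate 3 was the highest library without TNF. The log2 change was 0.87 in knockout cells (SE 0.23, limma adjusted p = 0.244) and 1.27 in control cells (SE 0.23, limma adjusted p = 0.0499). The change in control cells stood at the threshold, and it was lost without any 1 library other than SoxC_KO replicate 3 (limma adjusted p = 0.0662 to 0.284). Leaving out the 2 libraries with liver transcripts (limma adjusted p = 0.267) or the 2 with muscle transcripts (0.174) lost it too. So did a model of only the 2 groups compared (0.1945), a pseudocount of 0.5, no filter and no intensity trend (limma adjusted p = 0.0509 to 0.092 for the last 3). Averaged over the genotypes the change was 1.07 (SE 0.16, limma adjusted p = 0.00707). That call was lost without the 2 libraries with liver transcripts (limma adjusted p = 0.0657) and without the 2 with muscle transcripts (0.0868), and held when any 1 library was left out. With the block both single changes passed (limma adjusted p = 0.0163 in knockout cells and 0.00150 in control cells).

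Tnip2 (chromosome 5, 34496087 to 34513991, minus strand), which encodes another ubiquitin-binding partner of A20, had lower levels. It was at 248, 247 and 412 in SoxC_KO_TNF, against 261, 182 and 401 in SoxC_KO, and at 283, 274 and 444 in control_TNF, against 223, 212 and 307 in control. Replicate 3 was the highest library of each group, and groups with and without TNF overlapped in both genotypes. The average log2 change was 0.28, with a 95% interval of -0.24 to 0.79.

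Cyld (chromosome 8, 88697028 to 88751945, plus strand), the other deubiquitinase among the 10, differed between the genotypes in whether its groups overlapped. Its level was 1739.6, 1563 and 1744 in SoxC_KO_TNF, against 1279, 1367 and 638 in SoxC_KO. In control_TNF it was 1298, 1723 and 936, against 1479.6, 1368 and 1017 in control. Every library of SoxC_KO_TNF lay above every library of SoxC_KO, whereas control_TNF and control overlapped. The log2 change was 0.70 in knockout cells (95% interval 0.01 to 1.38, limma adjusted p = 0.675) and 0.01 in control cells (95% interval -0.68 to 0.69). Neither passed, and the change in knockout cells by replicate number was 0.44, 0.19 and 1.45, the last from the low SoxC_KO replicate 3. The changes of the 2 genotypes were not found to differ (interaction 0.69, 95% interval -0.28 to 1.66, limma adjusted p = 0.884).

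**Figure D1:**
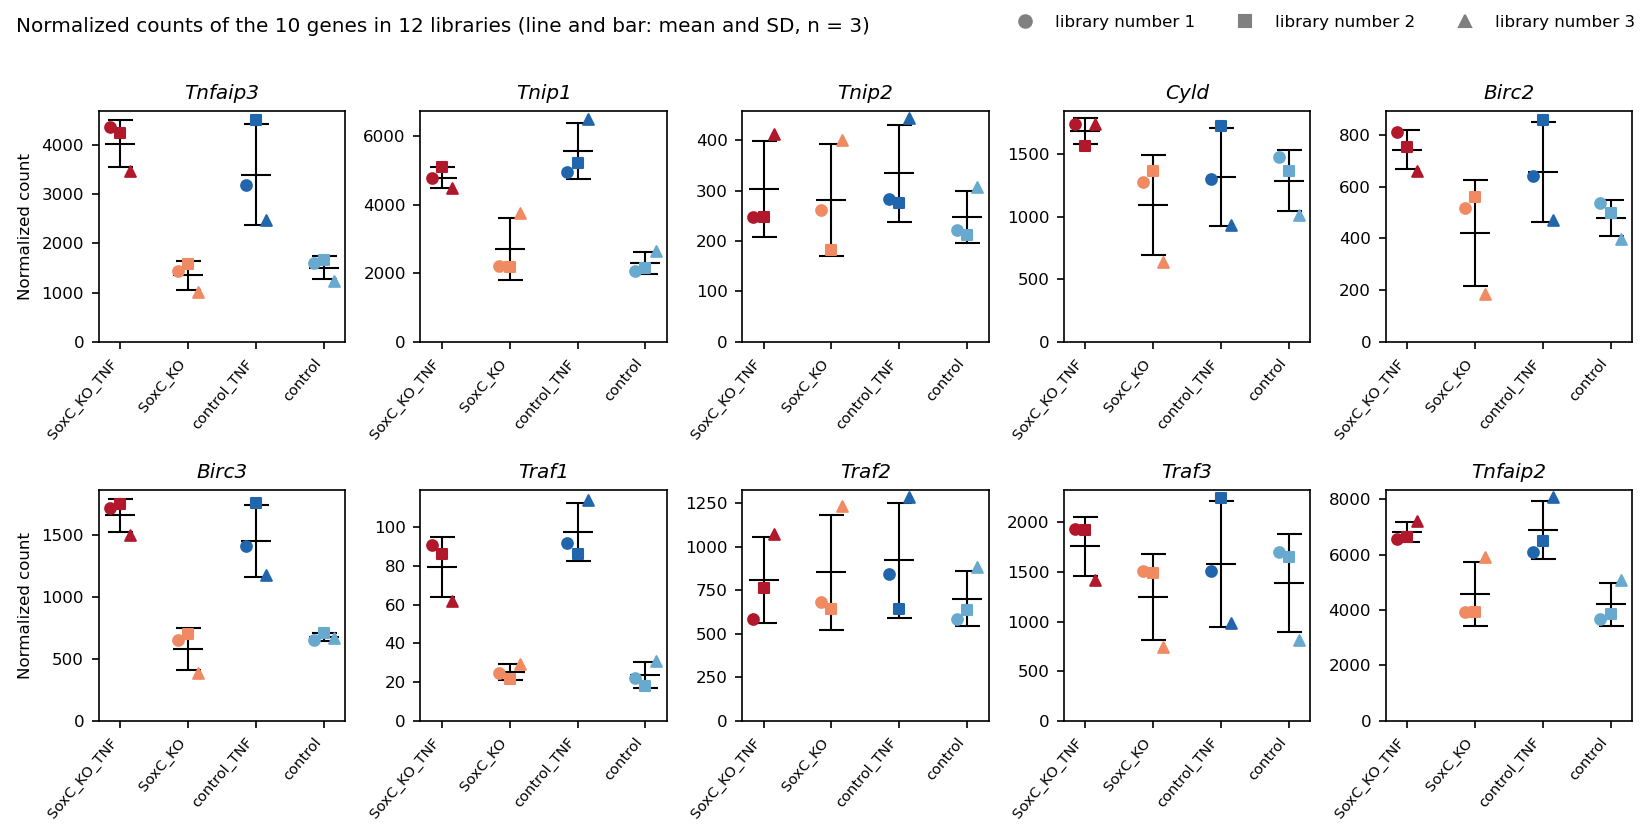
Normalized count of each of the 10 genes in the 12 libraries, on a linear axis from 0 in each panel, with 1 point per library shaped by replicate number, and a line and bars for the mean and SD of each group of 3. Tnfaip3, Tnip1, Birc3, Traf1 and Tnfaip2 have all libraries with TNF above all without it in both genotypes, while Traf2, Traf3 and Tnip2 overlap in both.

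The 2 cIAP genes lie beside each other on the minus strand of chromosome 9, Birc2 at 7818227 to 7837064 and Birc3 at 7848699 to 7873186, with 11634 bp between them. Both encode ubiquitin ligases that bind TRAF2. Birc3 was at 1710.3, 1749.5 and 1500.0 in SoxC_KO_TNF, against 652, 695 and 382 in SoxC_KO. It was at 1406, 1754 and 1177 in control_TNF, against 649, 707 and 667 in control. The groups with and without TNF did not overlap in either genotype. The log2 change was 1.56 in knockout cells (SE 0.24, limma adjusted p = 0.0215) and 1.08 in control cells (SE 0.24, limma adjusted p = 0.155), and the average was 1.32 (SE 0.17, limma adjusted p = 0.00291). The block brought the control change past the threshold (limma adjusted p = 0.00459). The call in knockout cells was lost without any 1 library of SoxC_KO_TNF, without SoxC_KO replicate 1 or without control_TNF replicate 1 (limma adjusted p = 0.0521 to 0.128). It was also lost without the 2 libraries with muscle transcripts (limma adjusted p = 0.288) and without the 2 with liver transcripts (0.149). A model of only the 2 groups compared lost it too (limma adjusted p = 0.318). The average passed in all 22 alternatives (at most 0.0337).

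Birc2 moved less than its neighbour. It was at 809.8, 754 and 661 in SoxC_KO_TNF, against 515, 558 and 184 in SoxC_KO, and at 640.3, 857 and 469 in control_TNF, against 534, 498 and 399 in control. The groups did not overlap in knockout cells and overlapped in control cells. Its average log2 change was 0.70 (SE 0.27, limma adjusted p = 0.444), and only the model with the block (limma adjusted p = 0.0335) and that without the 4 libraries numbered 3 (0.53, limma adjusted p = 0.0467) called it. SoxC_KO replicate 3 had the lowest Birc2 and Birc3 values of all 12 libraries, and without it the average Birc2 change was 0.44.

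Among the TRAF adaptors, Traf1 had the largest change of the 10 genes and the lowest level. Traf1 (chromosome 2, 34941750 to 34961772, minus strand) encodes the TRAF without a RING domain, which pairs with TRAF2. It was at 90.6, 86.1 and 61.9 normalized counts in SoxC_KO_TNF, against 24.5, 21.7 and 29.5 in SoxC_KO. It was at 92.0, 86.3 and 114 in control_TNF, against 22.1, 17.8 and 30.7 in control. The groups with TNF lay wholly above those without it. The log2 change was 1.61 in knockout cells (SE 0.28, limma adjusted p = 0.0387), a 3.05-fold level, and 2.03 in control cells (SE 0.28, limma adjusted p = 0.0124), a 4.08-fold level. Averaged over the genotypes it was 1.82 (SE 0.20, limma adjusted p = 0.000866), passed in all 22 alternatives (at most 0.0191), and only 0.298% of genes had a larger average change. Of the single calls, that in knockout cells was lost without any 1 library other than control replicate 3 (limma adjusted p = 0.0523 to 0.221), and also without the filter on low values (0.111) and after quantile normalization (0.0855). That in control cells was lost without any 1 library of control_TNF or without control replicate 1 or 2 (limma adjusted p = 0.0538 to 0.0954). Both single calls were also lost without the muscle libraries (limma adjusted p = 0.569 in knockout cells and 0.0703 in control cells). The same held without the liver libraries (0.317 and 0.0961) and with only the 2 groups compared (0.377 and 0.159). As the gene with the fewest reads, Traf1 carries the largest relative counting error of the 10.

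Traf2 (chromosome 2, 25517982 to 25546940, minus strand), the adaptor that brings the cIAPs to the receptor, was at 586, 763 and 1073 in SoxC_KO_TNF, against 682, 645 and 1236 in SoxC_KO, and at 842, 640.1 and 1288 in control_TNF, against 586, 636 and 883 in control. The groups overlapped and replicate 3 was the highest of each. Its average log2 change was 0.15, with a 95% interval of -0.38 to 0.68. Traf3 (chromosome 12, 111166370 to 111267153, plus strand), which keeps NIK low together with TRAF2 and the cIAPs, was at 1931, 1922 and 1414 in SoxC_KO_TNF, against 1507, 1490.6 and 742 in SoxC_KO. It was at 1513, 2248 and 981 in control_TNF, against 1695, 1648 and 814 in control. Here replicate 3 was the lowest of each group, the groups overlapped, and the average log2 change was 0.37 with a 95% interval of -0.24 to 0.97. Neither gene passed the test.

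Tnfaip2 (chromosome 12, 111442469 to 111455018, plus strand, 175315 bp downstream of Traf3) had the highest counts of the 10. It was at 6585, 6651 and 7229 in SoxC_KO_TNF, against 3920.3, 3915 and 5903 in SoxC_KO, and at 6109, 6490.4 and 8101 in control_TNF, against 3688, 3851 and 5096 in control. The groups did not overlap in either genotype. The average log2 change was 0.66 (SE 0.15, limma adjusted p = 0.0720), and it passed with the block (limma adjusted p = 0.000825), without the 4 libraries numbered 3 (0.000969), without SoxC_KO replicate 3 (0.0164), without control replicate 3 (0.0495) and after quantile normalization (0.0227). Its exons share 314 bp with the antisense gene Gm40578, which stood at 24.0 normalized counts or less in every library.

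Taken by genotype, TNF raised 3 of the 10 genes in knockout cells (Tnfaip3, Birc3 and Traf1; 0.243% of all genes tested were higher by this rule) and 2 of the 10 in control cells (Traf1 and Tnip1; 0.287%). With the replicate number as a block, 5 passed in knockout cells (1.78% of all genes higher) and 5 in control cells (1.18%). In each case these were Tnfaip3, Tnip1, Birc3, Traf1 and Tnfaip2. It is not established that same-numbered libraries are pairs. Over the average the block called 6, with Birc2 in addition (3.01%). All libraries with TNF lay above all without it for 7 of the 10 genes in knockout cells (6.43% of all genes) and for 5 of the 10 in control cells (4.6% of all genes). For none of the 10 was the reverse so, where 6.4% of all genes in knockout cells and 4.11% in control cells were. The 10 genes had a median log2 change of 0.78 in knockout cells (9 of 10 above 0, Traf2 at -0.06) and 0.57 in control cells (10 of 10), against -0.01 and -0.02 for all genes tested. Without the 4 libraries numbered 3, Tnfaip3 changed by 1.51, Birc3 by 1.36, Traf1 by 1.89 and Tnip1 by 1.17 in knockout cells on the log2 scale, and by 1.21, 1.21, 2.11 and 1.27 in control cells.

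**Figure D2:**
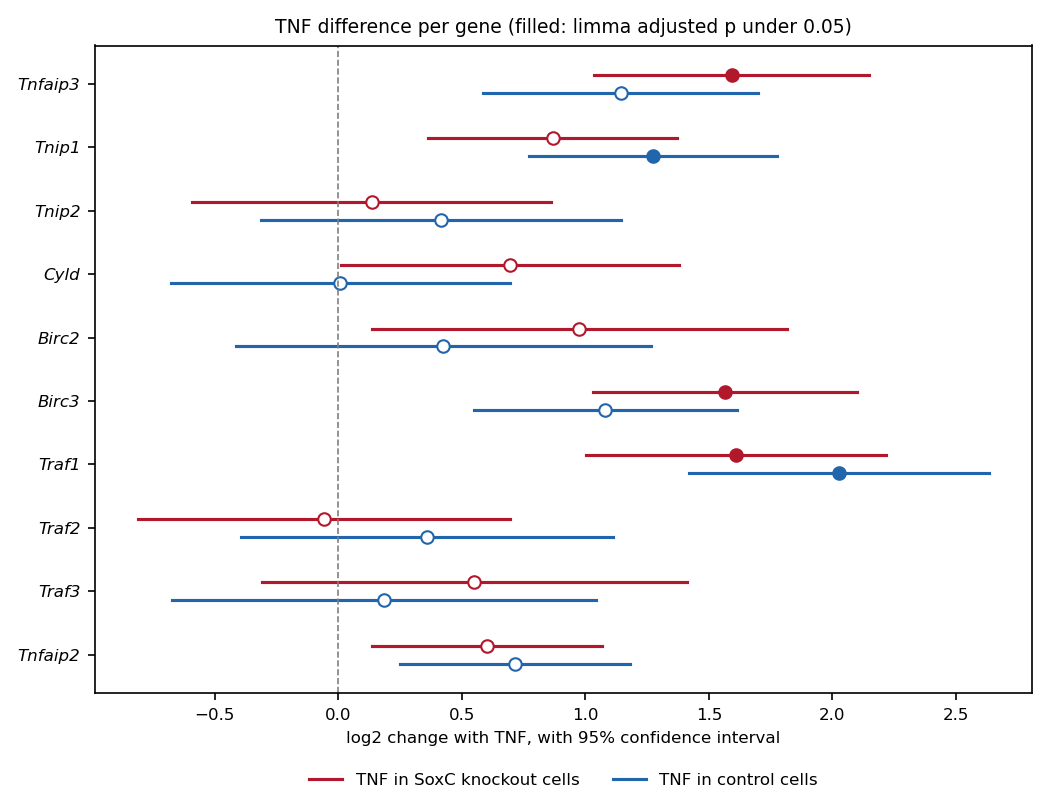
Log2 change with TNF of each gene in knockout cells (SoxC_KO_TNF minus SoxC_KO) and in control cells (control_TNF minus control), with points at the limma estimate, lines for the 95% confidence interval and filled points for an adjusted p under 0.05. Traf1 is the furthest to the right in both, at 1.61 and 2.03, and the intervals of the 2 genotypes overlap for every gene.

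None of the 10 genes passed in the comparison of knockout with control cells, with TNF or without it, and none of the 18139 genes tested did (0% called; limma, with or without the block). The genes tested include Sox4, Sox11 and Sox12, so the targeted genes were not called either. The absence of calls therefore does not show that the 10 genes were unchanged. At an unadjusted p under 0.05 the 10 genes gave 0 calls in each comparison. Of all 18139 genes tested, 233 were called with TNF and 176 without it, so 0 of 10 is near the share of all genes. No gene had all knockout libraries above or all below the control libraries, with TNF or without it, where 2.82% and 2.34% of all genes were wholly above and wholly below with TNF, and 2.39% and 1.98% without it. With TNF the differences ran from -0.30 for Traf1 (95% interval -0.91 to 0.31) to 0.39 for Cyld (-0.29 to 1.08) on the log2 scale. Without TNF they ran from -0.33 for Birc2 (-1.17 to 0.50) to 0.24 for Traf2 (-0.51 to 0.99). The narrowest intervals were those of Tnfaip2, -0.47 to 0.46 with TNF and -0.36 to 0.57 without it. Tnfaip3 had -0.28 to 0.84 with TNF and -0.72 to 0.39 without it. Differences as large as the average TNF change of Tnfaip3 (1.37) lay outside the 95% interval of each of the 10 genes in both comparisons.

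The change with TNF was not found to differ between the genotypes for any of the 10 genes (interaction term in limma, 0 of 10 and 0% of all genes, lowest adjusted p among the 10 genes 0.884). The interaction was 0.69 for Cyld (95% interval -0.28 to 1.66), 0.55 for Birc2 (-0.64 to 1.74), 0.48 for Birc3 (-0.27 to 1.24) and 0.45 for Tnfaip3 (-0.34 to 1.24), a larger estimate in knockout cells. It was -0.42 for Traf1 (-1.28 to 0.44), -0.42 for Traf2 (-1.48 to 0.65) and -0.41 for Tnip1 (-1.12 to 0.30), a larger estimate in control cells. At an unadjusted p under 0.05 none of the 10 genes was called, and 2 were with the block, Cyld (limma unadjusted p = 0.0373) and Tnfaip3 (0.0410), with no adjusted p under 0.284. Of all 18139 genes, 273 were called at an unadjusted p under 0.05, and 3123 with the block, so the 2 of 10 are near the share of all genes. The passing of Tnfaip3 and Birc3 in knockout cells alone and of Tnip1 in control cells alone therefore does not show a difference between the genotypes. The interaction term, which tests that difference, called none of these 3 genes.

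**Figure D3:**
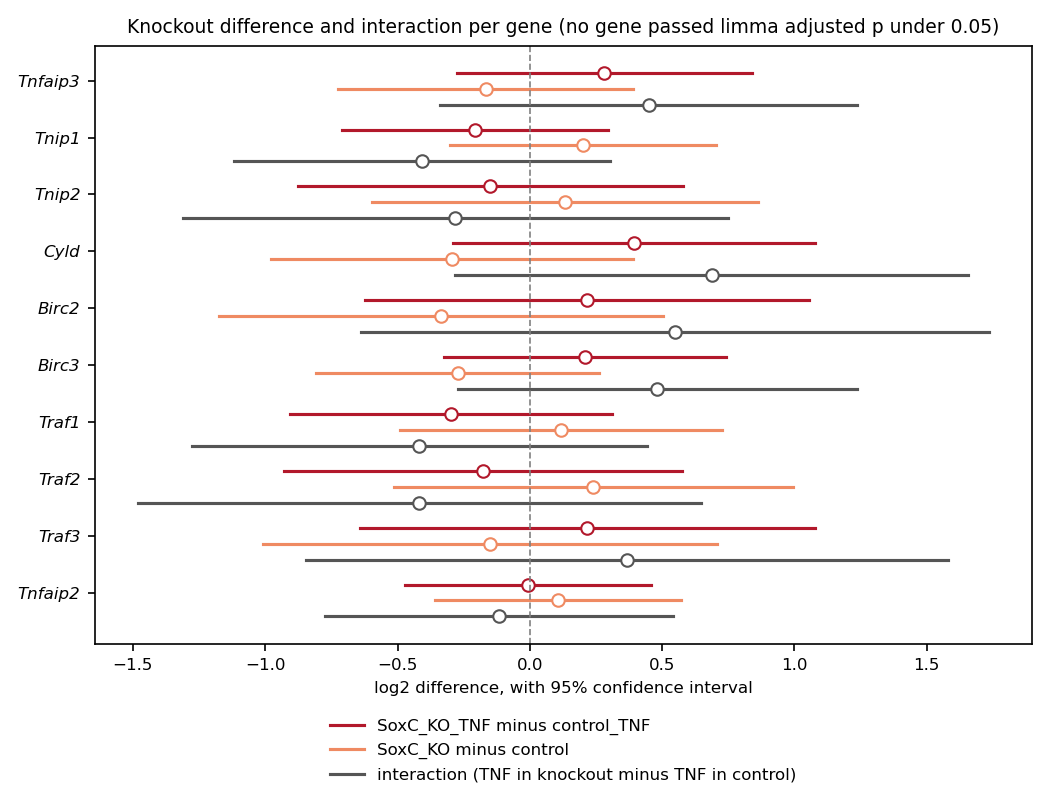
Log2 difference of each gene between knockout and control cells, with TNF (SoxC_KO_TNF minus control_TNF) and without it (SoxC_KO minus control), and the interaction (TNF change in knockout cells minus that in control cells), with lines for the 95% confidence interval. Every interval crosses 0.

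Taken per kilobase of exon, the order of the levels had the same ends in all 4 groups. The lengths count all annotated exons of a gene, whichever transcripts were present, so the order depends on the annotation. Tnfaip2 and Tnip1 stood highest. Tnfaip2 was at 1369 ± 71.1 normalized counts per kb in SoxC_KO_TNF, 919 ± 230.0 in SoxC_KO, 1384 ± 212 in control_TNF and 845 ± 155 in control (SD, n = 3 each). Tnip1 was at 1354 ± 85.1 per kb in SoxC_KO_TNF, 766 ± 255 in SoxC_KO, 1570.4 ± 232 in control_TNF and 649 ± 89.5 in control (SD, n = 3 each). Their libraries overlapped in each group, so neither is above the other beyond the spread. Tnfaip3 held the third place, at 557 ± 66.1 per kb in SoxC_KO_TNF, 187 ± 40.6 in SoxC_KO, 469.6 ± 143 in control_TNF and 208 ± 31.9 in control (SD, n = 3 each), apart from the first 2 in every group. Birc3 held the fourth place with TNF, at 330.1 ± 26.8 in SoxC_KO_TNF and 289 ± 58.0 in control_TNF, and the sixth without it, at 115 ± 33.9 in SoxC_KO and 135 ± 5.93 in control (SD, n = 3 each). Traf1 was last and apart from the rest, at 9.02 ± 1.75 in SoxC_KO_TNF, 2.86 ± 0.449 in SoxC_KO, 11.1 ± 1.68 in control_TNF and 2.67 ± 0.744 in control (SD, n = 3 each). In control_TNF the Birc3 libraries overlapped those of both neighbours, Tnfaip3 above and Traf3 below, and in SoxC_KO_TNF they stood apart from both. Between the third and the ninth place without TNF, only Birc3 and Birc2 in control were neighbours whose libraries did not overlap.

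The libraries numbered 3 moved the 10 genes in 2 directions, with the same sign in all 4 groups for 7 of them. Against the mean of replicates 1 and 2 of its group, replicate 3 was higher for Tnip2 (by 0.50 to 0.88 on the log2 scale), Traf2 (0.53 to 0.90) and Tnfaip2 (0.13 to 0.59). It was lower for Tnfaip3 (-0.61 to -0.31), Birc2 (-1.54 to -0.24), Birc3 (-0.82 to -0.02) and Traf3 (-1.04 to -0.45). Tnip1 and Traf1 were higher in 3 of 4 groups and lower in SoxC_KO_TNF, and Cyld was lower in 3 of 4. Across 18112 genes this difference ran with exon length, with Spearman's rho of -0.34 in SoxC_KO_TNF, -0.40 in SoxC_KO, -0.41 in control_TNF and -0.46 in control, over genes that are not independent. Genes with under 2 kb of exon had a median of 0.25 to 0.52 and those with 5 kb or more of -0.64 to -0.32. The exon lengths of the 10 genes run from 2685 bp (Tnip2) to 12576 bp (Cyld), and not all of the 10 followed this trend. Among those of 5 kb or more, Traf2 (5101 bp) was higher in replicate 3 in all 4 groups and Traf1 (8819 bp) in 3. Tnfaip3, Birc3 and Traf3 were lower in all 4 groups and Cyld in 3. The macrophage markers summed to 2826 to 3410 in the libraries numbered 3, against 1114 to 1547 in the others. Most of each sum was Lyz2, at 2172 to 2438 against 677 to 1014. Csf1r and Adgre1 were also higher in every library numbered 3 than in any other, while Cd68, Itgam, Ptprc and C1qa overlapped. The part of these markers in the values of the 10 genes was not tested. The TNF change of Tnip1 by replicate number was 1.11, 1.23 and 0.26 in knockout cells and 1.26, 1.27 and 1.29 in control cells, and that of Traf1 was 1.84, 1.94 and 1.04 in knockout cells and 2.01, 2.21 and 1.86 in control cells. For both, the pair of replicates 3 in knockout cells stood below the others.

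**Figure D4:**
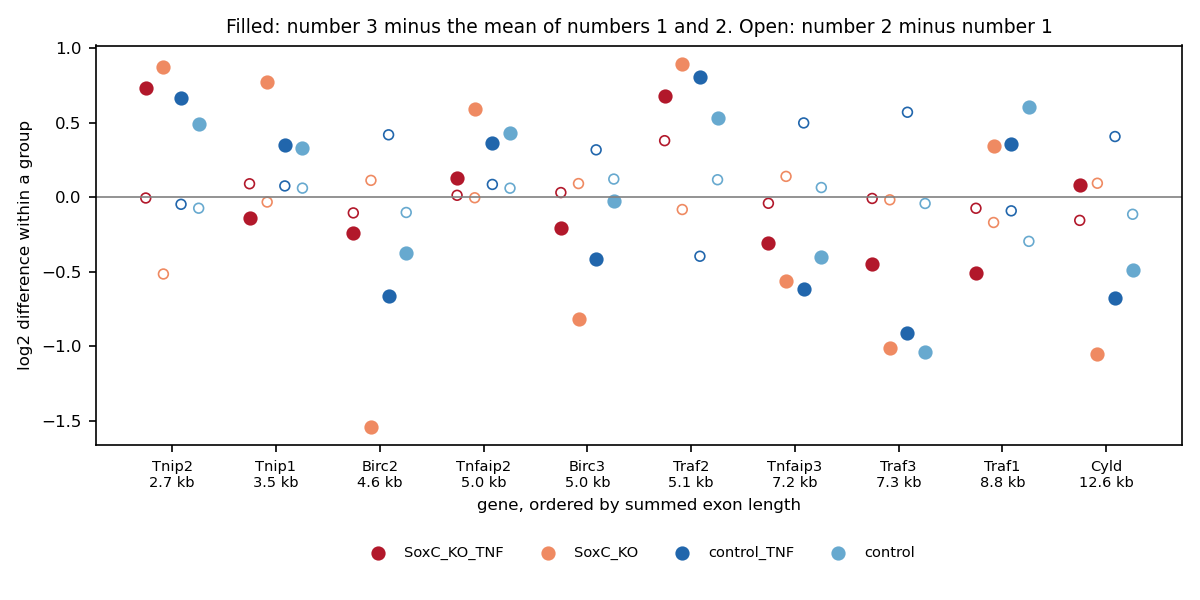
Log2 difference of replicate 3 from the mean of replicates 1 and 2 for each of the 10 genes in each of the 4 groups (filled points), with the difference of replicate 2 from replicate 1 beside it (open points) and the genes ordered by summed exon length in kb. The filled points of Tnip2, Traf2 and Tnfaip2 lie above 0 in all groups and those of Tnfaip3, Birc2, Birc3 and Traf3 below 0.

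Levels of pairs among the 10 genes over the 12 libraries, which share the TNF groups and the libraries numbered 3, were alike for some pairs. Tnfaip3 and Birc3 had a Pearson's r of 0.98 (0.996 over the 8 libraries without number 3), Traf1 and Tnip1 of 0.96 (0.99), and Tnip1 and Tnfaip2 of 0.97 (0.99). Cyld and Birc2 had 0.93 (0.83) and Cyld and Traf3 had 0.90 (0.93). Traf2 and Tnip2 had 0.91, and 0.46 without the libraries numbered 3. Among all other genes tested, the 5 most like Tnfaip3 over the 12 libraries were Enpp2, which encodes autotaxin (r = 0.99), Fmo1 (0.99), Gbp6 (0.98), Ext1 (0.98) and the adhesion molecule gene Vcam1 (0.97). The 5 most like Traf1 were Adtrp (0.98), Aldh1a2 (0.98), Gpr84 (0.98), Egln3 (0.97) and the chemokine gene Ccl5 (0.97). Over the 8 libraries without number 3 the r of these 10 genes was between 0.98 and 0.99.

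Of 37 other genes of the pathway in 5 lists, all of them tested, 1 rose and none fell with TNF over the average (limma, adjusted p under 0.05; 0.877% of all genes were higher and 0.292% lower), with a median log2 change of 0.10. That gene was Tnip3, which encodes the third TNIP protein. It was at 414, 357 and 495 in SoxC_KO_TNF, against 102, 106 and 115 in SoxC_KO, and at 341, 307 and 380.1 in control_TNF, against 88.3, 125 and 147 in control. Every library with TNF was above every library without it. The log2 change was 1.95 in knockout cells (SE 0.23, limma adjusted p = 0.00483) and 1.53 in control cells (SE 0.23, limma adjusted p = 0.0188), and 1.74 on average (SE 0.16, limma adjusted p = 0.000284). So Tnip1 and Tnip3 rose on average while Tnip2 did not pass.

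None of the 9 genes of the receptor complex and its TRAF relatives passed (median 0.07), among them the receptors Tnfrsf1b (0.19, limma adjusted p = 0.935) and Tnfrsf1a (-0.46, 0.211) and the TRAF relative Traf7 (-0.05). None of the 5 genes of the linear ubiquitin machinery passed (median -0.02), with Rbck1 at -0.10, Sharpin at -0.11 and Otulin at -0.02. Of 9 A20 and CYLD partners and other deubiquitinases, 1 passed, Tnip3 (median 0.19), and the most abundant were Rnf11 (0.19), Tax1bp1 (0.24) and Otud7b (0.07). None of the 10 genes of the kinases and their partner subunits passed (median 0.11). Map3k7, which encodes the kinase TAK1, was at 0.09, and the partner genes Ikbkg and Tab2 were at 0.10 each. None of the 4 genes in the list of other inhibitor of apoptosis genes passed (median -0.05), Xiap being at 0.21. That list also holds Diablo, which encodes an antagonist of these inhibitors. With the replicate block, 3 of the 37 rose and 1 fell over the average (3.01% of all genes higher and 2.18% lower): Tnip3, the IKK-related kinase genes Ikbke (0.85, limma adjusted p = 0.000223) and Tbk1 (0.47, 0.0154), and Tnfrsf1a, which fell by 0.46 (0.0241).

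**Figure D5:**
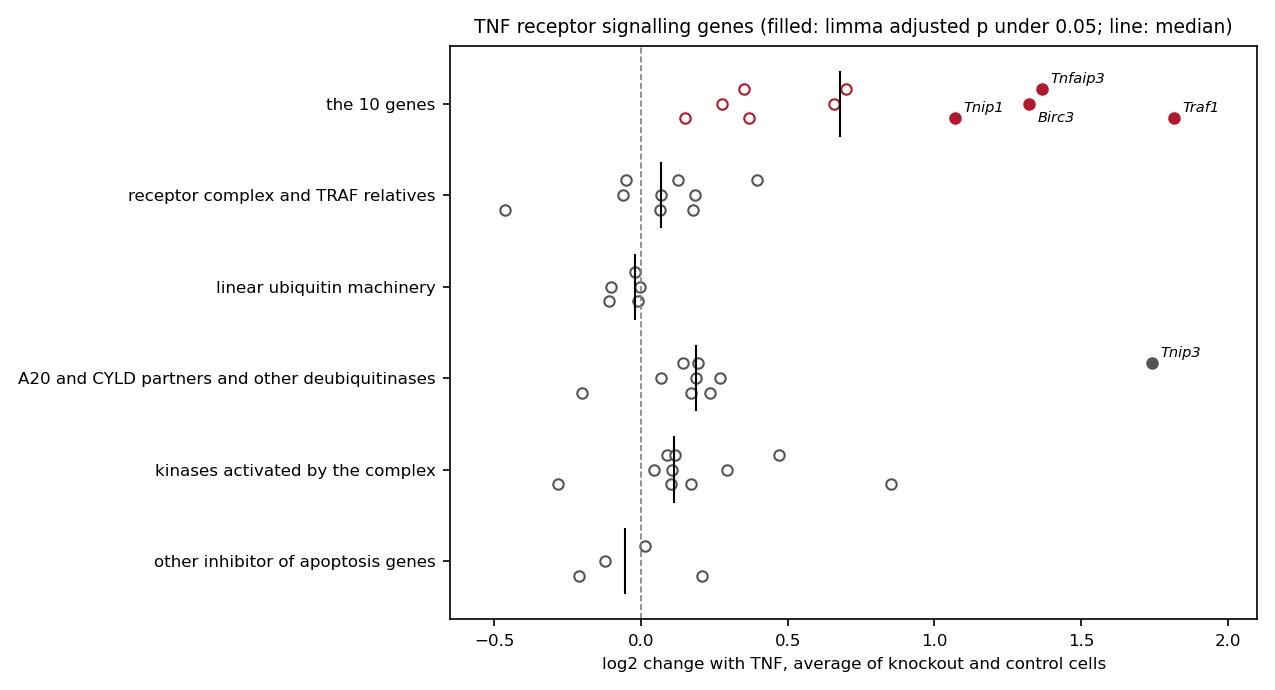
Log2 change with TNF, averaged over knockout and control cells, for the 10 genes and for 5 lists of other TNF receptor signalling genes, 1 point per gene, with a line at the median and filled points for a limma adjusted p under 0.05. The 10 genes have a median of 0.68 and the lists have medians between -0.05 and 0.19, with Tnip3 at 1.74 the only filled point outside the 10 genes.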

How the data were processed

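Poly(A) RNA of 12 libraries was sequenced as paired reads, per the labels' protocols. The deposited values are log2 normalized counts, 1 per gene and library, without a pseudocount, and values of 1 or less stand as 0. The submitters' processing notes name mm10 and DESeq, and the aligner, annotation, strand setting and treatment of multimapping reads are not stated in the labels used. Groups and replicate numbers come from the titles. The labels name no separate animals or cultures behind the replicates, so the p-values rest on a spread between libraries that could be technical. Library depth was estimated from the commonest low value, read as 1 read pair, and whole reads were not recovered, so no count model was run.

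Values were turned back to a linear scale, since the design had assumed one, and analysed as log2(normalized count + 1), which understates changes of low genes. Genes at 10 or more in at least 3 libraries were kept (18139). One limma model (limma 3.58.1, R 4.3.3) took all 12 libraries with a mean for each group, an intensity trend and Benjamini-Hochberg adjustment over all genes kept, at 0.05. It was tested on data simulated with independent noise in each library, so the shared shift of the libraries numbered 3 was not simulated. Figures used Python 3.11.15 and matplotlib 3.10.9. The genes, lists and tests were chosen with earlier results of these data known. All 10 genes are named, and a gene of another list is named where it passed or was among the 3 with the highest mean (some are left out). Levels per kb used exon lengths of a GENCODE annotation in which all 10 genes had the deposited coordinates.

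Same-numbered libraries, after removal of group means, correlated by 0.340, 0.148 and 0.501 in knockout cells with and without TNF, 0.103, 0.550 and 0.715 in control cells with and without TNF, 0.457, 0.515 and 0.707 for knockout against control without TNF, and 0.0537, 0.189 and 0.526 with TNF. All but the last comparison stood above a cutoff of 0.1 for each number. With group means removed, a shift shared by the libraries numbered 3 also makes numbers 1 and 2 correlate. The check therefore cannot show that same-numbered libraries are pairs. The labels do not say what a number stands for, and the libraries numbered 3 stand apart in all groups. Alternatives were other pseudocounts (0.5 and 4), no filter and a filter of 50, no trend, quantile normalization, the replicate block, a model with only the 2 groups compared, leaving out sets of libraries and leaving out each library.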

Additional observations from a re-analysis of the deposited data

How the results depend on the processing

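The average change with TNF called 4 of the 10 genes, and 3 to 6 under the alternatives. The count of 3 in knockout cells became 0 with only the 2 groups compared, without the liver or without the muscle libraries, 2 without the filter or after quantile normalization, and 5 with the block or without the libraries numbered 3, and was 0 to 3 when 1 library was left out. The count of 2 in control cells became 1 with a pseudocount of 0.5, without the filter or without the trend, 0 with only the 2 groups compared, without the 2 libraries with liver transcripts or without the 2 with muscle transcripts, and 5 with the replicate block or without the 4 libraries numbered 3. It was 0 to 3 when 1 library was left out. Fits of fewer libraries have fewer residual degrees of freedom, and otherwise the cause was not tested. The comparisons of knockout with control cells and the interaction called 0 of the 10 genes in every setting run, and at most 1 gene in all. The block changed no other call among the 10 genes than those given. All genes called numbered 53 in knockout cells, 58 in control cells and 212 on average. These became 505, 310 and 941 with the block, 186, 267 and 653 without the libraries numbered 3, 10, 15 and 92 without the liver libraries, 1, 13 and 83 without the muscle libraries, 3 and 0 for the first 2 with only the 2 groups compared, and 34 in control cells without the filter. Leaving out 1 library gave 14 to 55, 5 to 84 and 118 to 253.

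Of 203 alternatives for changes of genes called, 141 still passed and 62 lost the call, and none turned direction. Changes near 0 that turned sign were as follows. With TNF in knockout cells Traf2 was at 0.013 without the libraries numbered 3, 0.15 without the liver and 0.020 without the muscle libraries. In control cells without the liver libraries Traf3 was at -0.11 and Cyld at -0.21. For knockout against control cells with TNF, Tnfaip2 was at 0.10 after quantile normalization, 0.072 without the libraries numbered 3 and 0.018 without the muscle libraries, and Traf2 at 0.032 without the muscle libraries. Without TNF, Birc2 was at 0.055 without the libraries numbered 3. The Tnfaip2 interaction was 0.028 after quantile normalization and 0.016 without the libraries numbered 3. Leaving out 1 library gave ranges across 0. With TNF in knockout cells they were -0.14 to 0.43 for Tnip2 and -0.29 to 0.24 for Traf2, and in control cells -0.21 to 0.23 for Cyld and -0.16 to 0.49 for Traf3. For knockout against control cells with TNF they were -0.0042 to 0.43 for Birc2, -0.089 to 0.11 for Tnfaip2, -0.39 to 0.073 for Tnip2, -0.41 to 0.093 for Traf2 and -0.086 to 0.51 for Traf3. Without TNF they were -0.62 to 0.18 for Birc2, -0.49 to 0.056 for Cyld, -0.089 to 0.25 for Tnfaip2, -0.30 to 0.021 for Tnfaip3, -0.058 to 0.34 for Tnip1, -0.16 to 0.41 for Tnip2, -0.056 to 0.32 for Traf1, -0.059 to 0.42 for Traf2 and -0.49 to 0.19 for Traf3. The interaction ranged from -0.26 to 0.082 for Tnfaip2 and from -0.56 to 0.0097 for Tnip2.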
